A study of Macaca mulatta with 2 samples.

Results

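The genes of glycolysis, lactate handling and pyruvate entry into mitochondria were taken from a list of 38 symbols, comprising glucose and lactate transporters, glycolytic enzymes, the PFKFB regulators, pyruvate dehydrogenase with its kinases, and pentose phosphate enzymes. Of these, 37 were found by symbol among the 33618 genes of the count table. GPI, glucose-6-phosphate isomerase, was not found under that symbol and was not analysed here. PFKFB1, with 1 control read and 0 sevoflurane reads, was below the filter of 1 CPM (reads scaled to a common library size) in either library, so 36 of the 18050 genes tested belonged to the group.

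The tissue was the prefrontal cortex of infant rhesus macaques, and the series compared a control group with a group given repeated sevoflurane, a volatile general anesthetic. The files used here hold 1 control animal (CON 1) and 1 sevoflurane animal (SEV 1), both labelled as postnatal day 28, whereas the series design describes 3 per group. Per the labels the sevoflurane exposures were made on about postnatal days 7, 14 and 28 at 2.5 to 3% for 4 h each. The results text of the study gives the same days, while its methods place the later exposures on other days. By those methods the animals were intubated, breathed oxygen with the anesthetic, were kept in a warm box, and the tissue was taken straight after the last exposure, and the handling of the controls is not described. Because there was 1 library per group, no value below has a replicate check and no p-value is given, and each difference is between these 2 libraries and not between the conditions.

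Reads assigned to genes numbered 16960880 in the control library against 9839105 in the sevoflurane library. The 7 Y-linked genes examined summed to 3 control reads and 4308 sevoflurane reads, as of a female control and a male sevoflurane animal. The methods of the study list only females as controls and both sexes in the sevoflurane group. Sex and exposure thus cannot be told apart between these libraries, and of the tested genes of the group PGK1, PDHA1 and PDK3 are X-linked. All 12 neuron markers examined had reads in both libraries. Intervals are 95% Clopper-Pearson limits and cover counting error only, not differences between animals. No molecular identifiers are named in the sources used here, so copied reads count as separate ones and the intervals may be too narrow. The floor of 3 reads corresponded to 0.179 CPM for the control and 0.302 CPM for the other library. In bulk tissue, fewer cells of a type and less RNA per cell cannot be told apart.

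Glycolysis splits glucose into pyruvate in the cytosol, and pyruvate is then either reduced to lactate by lactate dehydrogenase or carried into mitochondria and oxidised by the pyruvate dehydrogenase complex. The brain depends on glucose as its main fuel, and several steps are catalysed by isozymes that differ between neurons and glia, such as neuron-enriched ENO2 and astrocyte-enriched ALDOC. Lactate can pass between cells through monocarboxylate transporters, and the pyruvate dehydrogenase kinases switch off mitochondrial pyruvate use by phosphorylating the complex.

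Most glycolytic genes were modestly lower in the sevoflurane library, while the kinases that restrain pyruvate dehydrogenase were mostly higher. Of the 36 tested genes, 22 were lower and 5 higher beyond counting error, and the intervals of the other 9 included equal levels. Over all tested genes the shares were 28.1% lower and 28.4% higher, and among tested genes averaging 20 CPM or more, where counting error is smaller, they were 37.7% lower and 31.7% higher. In that range 19 of 29 genes of the group were lower and 3 higher. With GAPDH reads as the reference, which moved the median log2 ratio of all genes up by 0.15, the split was 19 lower and 9 higher. Shares over all tested genes were not computed under that reference, so this split has no like share beside it. In the main scaling the median log2 ratio of the group was -0.36, against -0.0048 over all tested genes. The median over tested genes averaging 20 CPM or more was -0.04. With the GAPDH reference the medians were -0.20 for the group and 0.15 over all tested genes, and the gap was -0.35 in both scalings. Markers of mature oligodendrocytes (median log2 ratio -1.29), astrocytes (-0.42) and neurons (-0.27) were mostly lower as well, though some astrocyte and neuron markers were higher. Their part in these differences was not tested. The values above describe the 2 libraries, since the genes were listed with earlier results known.

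**Figure D1:**
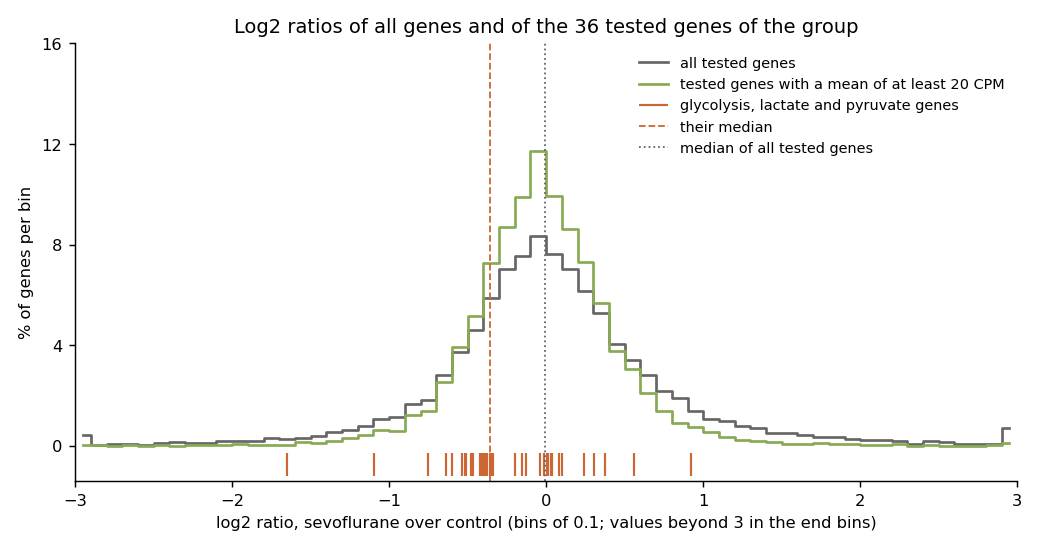
Distribution of the log2 ratio of sevoflurane over control, as percent of genes per bin of 0.1, for all 18050 tested genes and for those averaging 20 CPM or more, with 1 tick below the axis for each of the 36 genes of the group. The dashed line at -0.36 is the median of the group and the dotted line at -0.0048 that of all tested genes, and most ticks lie left of 0 within 1 log2 unit.

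The differences were mostly small in size. At a 2-fold threshold, 2 of 36 genes (LDHA and SLC16A3) were lower and 0 higher, where 5.47% of all tested genes were lower and 7.56% higher. At 1.5-fold, 5 genes were lower (LDHA, SLC16A3, PFKFB3, ENO2 and ENO1) and 1 was higher (PDK4), against 11.9% and 14.4% of all tested genes. The counts past either fold were thus near the shares over all tested genes or below them, and most of the lower genes differed by less than 1.5-fold. The median level was 65.6 CPM in the group and 16.6 CPM over all tested genes. Shares past either fold were not computed for genes averaging 20 CPM or more, so this holds against all tested genes only. Together the 37 genes took 0.629% of the control reads (interval 0.625 to 0.633) and 0.526% of the sevoflurane reads (0.522 to 0.531).

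**Figure D2:**
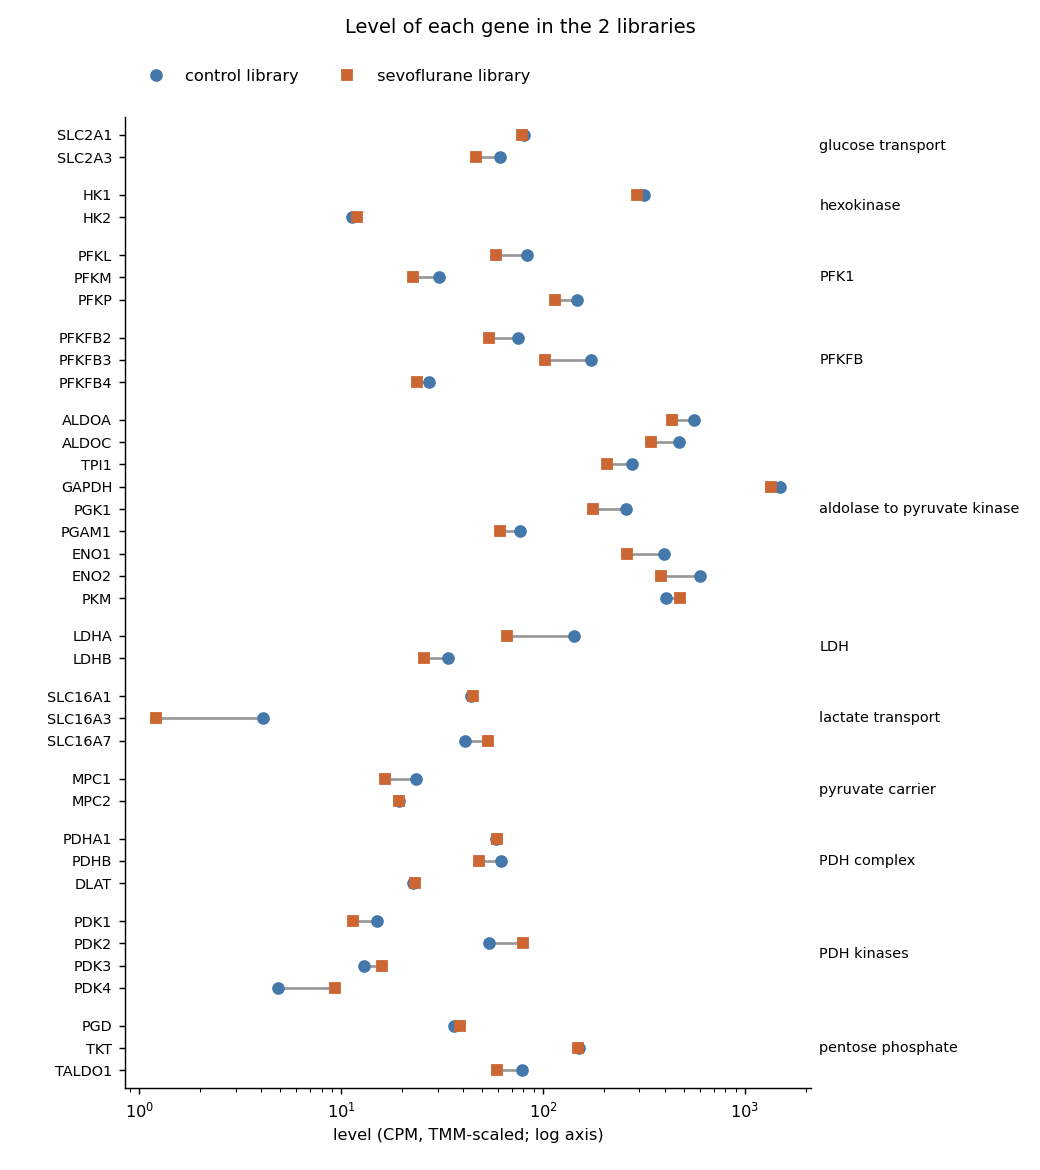
Level in CPM (log axis) of each of the 36 tested genes in the control library (circles) and the sevoflurane library (squares), ordered by role in the pathway. The pairs of points are close for most genes, with the sevoflurane level on the left, and the widest gaps are those of SLC16A3 and LDHA to the left and PDK4 to the right.

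Glucose enters brain cells mainly through SLC2A1 (GLUT1), the transporter of the blood-brain barrier and glia, and SLC2A3 (GLUT3), the high-affinity neuronal transporter. SLC2A1 had 1354 control and 777 sevoflurane reads, or 80.6 and 78.2 CPM, and its interval of the log2 ratio, -0.17 to 0.09, included equal levels. SLC2A3 had 1027 and 464 reads, or 61.1 and 46.7 CPM, and was lower with a log2 ratio of -0.39 (-0.55 to -0.23). Of the pair, the neuronal transporter was thus the one that was lower.

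Hexokinase traps glucose as glucose-6-phosphate, and HK1 is the main form in brain. HK1 had 5343 control and 2892 sevoflurane reads, or 318 and 291 CPM, with a log2 ratio of -0.13 (-0.19 to -0.06), but with GAPDH as the reference this turned to 0.027 with an interval that included equal levels. HK2, the inducible form, had 190 and 119 reads, or 11.3 and 11.98 CPM, with an interval of the log2 ratio of -0.26 to 0.42. At this first step the libraries were close.

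Phosphofructokinase 1 commits sugar phosphate to glycolysis and is built from muscle (PFKM), liver (PFKL) and platelet (PFKP) type subunits. PFKP had 2474 control and 1139 sevoflurane reads, or 147 and 115 CPM, with a log2 ratio of -0.36 (-0.46 to -0.26). PFKL had 1398 and 580 reads, or 83.2 and 58.4 CPM, with a log2 ratio of -0.51. PFKM had 514 and 226 reads, or 30.6 and 22.8 CPM, with a log2 ratio of -0.42. All 3 subunit genes were lower, with overlapping intervals, and their summed level in the sevoflurane library was 75.04% of the control (71.1 to 79.2).

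The PFKFB enzymes make or remove fructose-2,6-bisphosphate, the strongest activator of phosphofructokinase 1, and PFKFB3 is the form that most favours making it. PFKFB3 had 2909 control and 1018 sevoflurane reads, or 173 and 103 CPM, with a log2 ratio of -0.76 (-0.86 to -0.65), and 9.42% of all tested genes had a lower ratio. PFKFB2 had 1258 and 533 reads, or 74.9 and 53.7 CPM, and was lower with a log2 ratio of -0.48 (-0.63 to -0.33). PFKFB4 had 457 and 235 reads, or 27.2 and 23.7 CPM, with an interval of -0.43 to 0.03. PFKFB1, the liver and muscle form, was at or under the floor in both libraries.

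The run from aldolase to pyruvate kinase held the most abundant transcripts, and 8 of its 9 genes were lower in the sevoflurane library beyond counting error. All 9 averaged more than 20 CPM, a range in which 37.7% of tested genes were lower. Aldolase splits fructose bisphosphate, and ALDOA had 9451 control and 4305 sevoflurane reads, or 562 and 434 CPM (log2 ratio -0.38). ALDOC, the brain form enriched in astrocytes, had 7920 and 3384 reads, or 471 and 341 CPM (log2 ratio -0.47). TPI1, which interconverts the triose phosphates, had 4630 and 2069 reads, or 276 and 208 CPM (log2 ratio -0.40). These 3 genes were lower by similar amounts, with sevoflurane levels of 77.1%, 72.3% and 75.6% of the control.

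GAPDH, which oxidises glyceraldehyde-3-phosphate and served as the reference of the study's qPCR, had 25091 control and 13333 sevoflurane reads, or 1493 and 1343 CPM. Its log2 ratio of -0.15 (-0.18 to -0.12) was the nearest to 0 of the 8 lower genes. PGK1, which makes the first ATP of the pathway, had 4327 and 1761 reads, or 257 and 177 CPM (log2 ratio -0.54). PGAM1, phosphoglycerate mutase, had 1296 and 606 reads, or 77.1 and 61.0 CPM (log2 ratio -0.34). Processed copies of GAPDH and of several other glycolytic genes exist in primate genomes, and how reads matching more than 1 place were counted is not given in the sources used here.

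Enolase makes phosphoenolpyruvate and had the largest decrease of this run in both of its genes. ENO1, the ubiquitous form, had 6654 control and 2591 sevoflurane reads, or 396 and 261 CPM (log2 ratio -0.60, interval -0.67 to -0.54). ENO2, the neuron-specific enolase, had 10073 and 3827 reads, or 599 and 385 CPM (log2 ratio -0.64, -0.69 to -0.58). The neuronal and the ubiquitous enolase were therefore lower to a similar degree.

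PKM, pyruvate kinase of muscle and brain, was the exception, with 6807 control and 4760 sevoflurane reads, or 405 and 479 CPM. Its log2 ratio was 0.24 (0.19 to 0.30), and its sevoflurane level was 118% of the control. Set against its neighbour in the pathway, PKM had 0.676 control and 1.24 sevoflurane reads per read of ENO2. This ratio of ratios of 1.84 (1.75 to 1.94) does not depend on the scaling between libraries. ENO2 had the lowest log2 ratio of this run, so its own decrease enters that value. Set against GAPDH, the ratio of ratios of PKM was smaller, at 1.32 (1.26 to 1.37). Counts per gene do not separate the PKM splice forms.

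**Figure D3:**
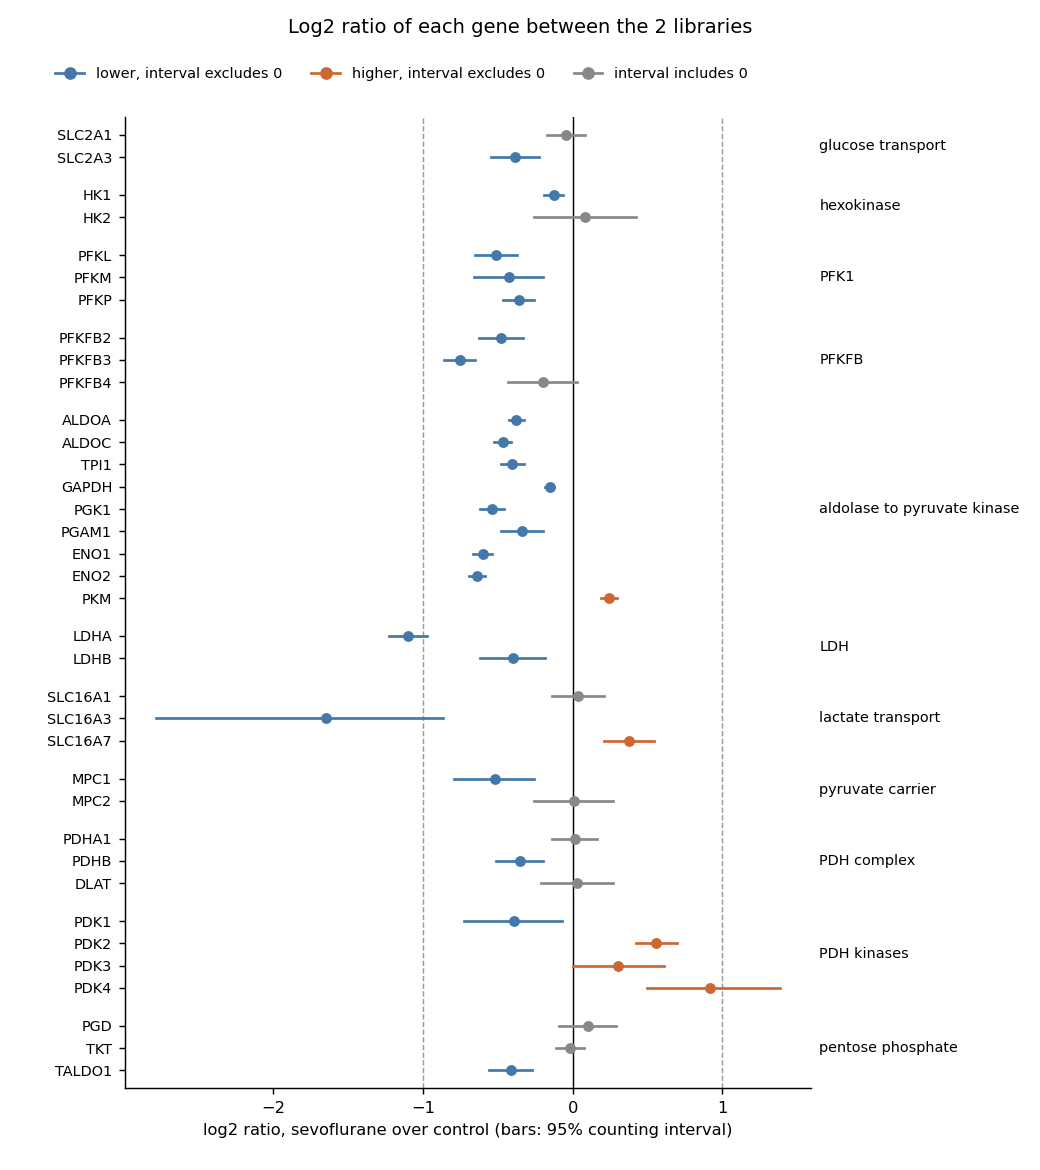
Log2 ratio of sevoflurane over control for each of the 36 tested genes, with its 95% counting interval as a bar and dashed lines at 2-fold. LDHA and SLC16A3 lie beyond the left dashed line, PDK4 at 0.92 comes closest to the right one, and the bars for PKM, SLC16A7, PDK2, PDK3 and PDK4 lie right of 0.

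Lactate dehydrogenase had the lowest sevoflurane level relative to the control of any step, and within it LDHA was the gene that differed most. LDHA, the subunit that favours making lactate from pyruvate, had 2396 control and 660 sevoflurane reads, or 143 and 66.5 CPM. It was 2.15-fold lower with a log2 ratio of -1.10 (-1.23 to -0.98), and 4.78% of all tested genes had a lower ratio. With GAPDH as the reference its log2 ratio was -0.95, short of 2-fold. LDHB, the subunit that favours turning lactate into pyruvate, had 571 and 256 reads, or 34.0 and 25.8 CPM, with a log2 ratio of -0.40 (-0.62 to -0.18). The intervals of the 2 subunits did not overlap.

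Lactate leaves and enters cells through monocarboxylate transporters, and the 3 genes measured here went different ways. SLC16A3 (MCT4), the low-affinity exporter of glycolytic cells and astrocytes, had 69 control and 12 sevoflurane reads, or 4.11 and 1.21 CPM, and its log2 ratio was -1.65 with a wide interval of -2.79 to -0.87. SLC16A1 (MCT1), found in endothelium, oligodendrocytes and astrocytes, had 740 and 449 reads, or 44.0 and 45.2 CPM, with an interval of -0.13 to 0.21. SLC16A7 (MCT2), the high-affinity neuronal importer, had 688 and 528 reads, or 40.9 and 53.2 CPM, and was higher with a log2 ratio of 0.38 (0.21 to 0.54). For neither of the 2-fold lower genes, LDHA and SLC16A3, did the whole interval lie beyond 2-fold.

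Pyruvate crosses the inner mitochondrial membrane through a carrier made of MPC1 and MPC2. MPC1 had 396 control and 163 sevoflurane reads, or 23.6 and 16.4 CPM, and was lower with a log2 ratio of -0.52 (-0.79 to -0.26). MPC2 had 325 and 193 reads, or 19.3 and 19.4 CPM, with an interval of -0.26 to 0.27. Only the MPC1 interval excluded equal levels.

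The pyruvate dehydrogenase complex turns pyruvate into acetyl-CoA, with an E1 enzyme of PDHA1 and PDHB subunits and the E2 enzyme DLAT. PDHA1 had 987 control and 589 sevoflurane reads, or 58.7 and 59.3 CPM, with an interval of -0.14 to 0.16. PDHB had 1039 and 480 reads, or 61.8 and 48.3 CPM, with a log2 ratio of -0.35 (-0.51 to -0.20). DLAT had 381 and 230 reads, or 22.7 and 23.2 CPM, with an interval of -0.21 to 0.27. PDHB was the one gene of the 3 whose level was lower beyond counting error.

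The pyruvate dehydrogenase kinases phosphorylate PDHA1 and so inactivate the complex, and 3 of the 4 were higher in the sevoflurane library. Over all tested genes 28.4% were higher beyond counting error, and a list of 4 is short. PDK2, the most widely expressed form, had 910 control and 793 sevoflurane reads, or 54.2 and 79.9 CPM, with a log2 ratio of 0.56 (0.42 to 0.70). PDK4, a form induced by fasting and glucocorticoids, had 82 and 93 reads, or 4.88 and 9.36 CPM, with a log2 ratio of 0.92 (0.50 to 1.39), and 91.0% of all tested genes had a lower ratio. PDK3 had 217 and 159 reads, or 12.9 and 16.01 CPM, with a log2 ratio of 0.31 (0.01 to 0.61) that was barely clear of 0.

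PDK1, a hypoxia-inducible form, was the one kinase that was lower, with 254 control and 114 sevoflurane reads, or 15.1 and 11.5 CPM, and a log2 ratio of -0.39 (-0.73 to -0.07). The calls for PDK3 and PDK1 were both lost with the stricter interval, and that of PDK1 also with GAPDH as the reference. Summed over the 4 kinases, the sevoflurane level was 134% of the control (124 to 145). Reads of PDK2 per read of its substrate gene PDHA1 numbered 0.922 in the control against 1.35 after sevoflurane, a ratio of ratios of 1.46 (1.27 to 1.68).

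The pentose phosphate pathway branches from glucose-6-phosphate to make NADPH and ribose. PGD, an NADPH-producing dehydrogenase, had 606 control and 384 sevoflurane reads, or 36.1 and 38.7 CPM, with an interval of -0.09 to 0.29. TKT, transketolase, had 2527 and 1478 reads, or 150 and 149 CPM, with an interval of -0.11 to 0.08. TALDO1, transaldolase, had 1321 and 586 reads, or 78.6 and 59.0 CPM, and was lower with a log2 ratio of -0.41 (-0.56 to -0.27). Under GAPDH as the reference, PGD (0.25) and TKT (0.14) became higher beyond counting error, as did SLC16A1 (0.19) and PDHA1 (0.17), while TALDO1 stayed lower.

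**Figure D4:**
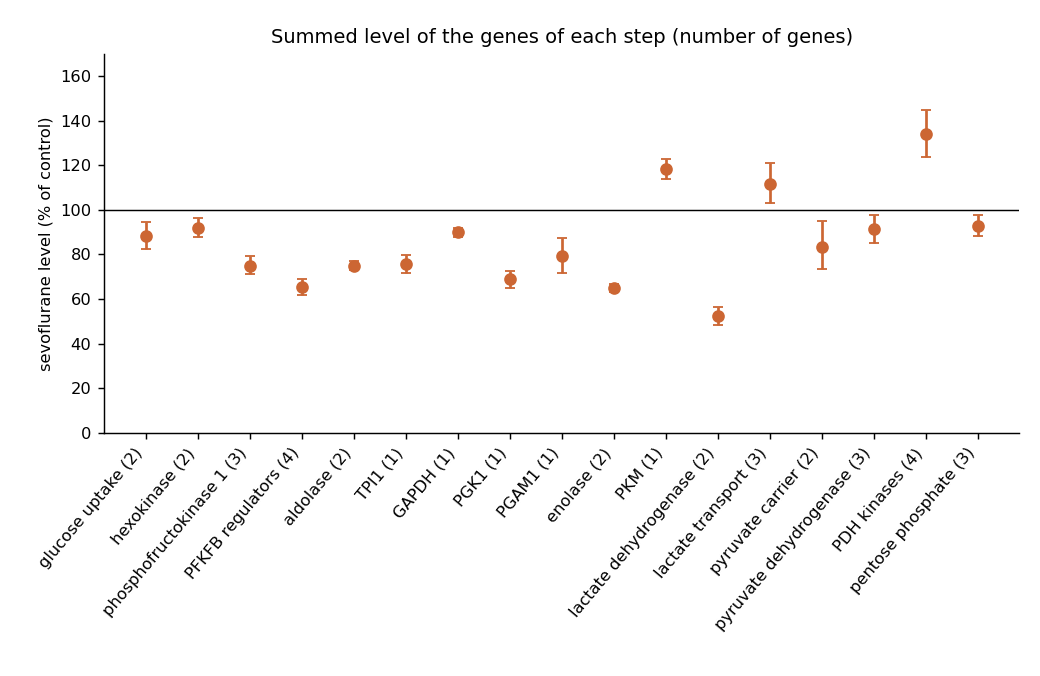
Summed level of the genes of each step in the sevoflurane library as percent of the control, with 95% counting intervals as bars and the number of genes in parentheses. The points run between 64.9% (enolase) and 92.1% (hexokinase) from glucose uptake to enolase, reach 118% at PKM, drop to 52.2% at lactate dehydrogenase and reach 134% for the pyruvate dehydrogenase kinases.

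Along the pathway, the summed level in the sevoflurane library was 88.2% of the control for glucose uptake, 92.1% for hexokinase, 74.9% for aldolase and 64.9% for enolase. It was 52.2% for lactate dehydrogenase (48.5 to 56.3), 112% for the lactate transporters (103 to 121) and 83.6% for the pyruvate carrier (73.4 to 94.99). For the pyruvate dehydrogenase genes it was 91.3%, and for the pentose phosphate genes 93.0%. Sums over isozymes give more weight to longer and more abundant transcripts.

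Isozyme balance was described within each library, as the share of a gene in the reads of its family. Such shares need no scaling between libraries, but they are not corrected for transcript length, which was not at hand, so only their change from one library to the other is read. Of the 7 families of 2 genes, the odds ratio of the share differed from 1 beyond counting error in 5. The same count was not made for other pairs of genes. Over all tested genes, 28.1% were lower and 28.4% higher beyond counting error, and the count of 5 is given as a description only.

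The largest odds shift among pairs was in lactate dehydrogenase. LDHA made up 80.8% of the LDHA and LDHB reads in the control (79.3 to 82.2) and 72.1% after sevoflurane (69.0 to 74.9), an odds ratio of 0.614 (0.516 to 0.732). Put as reads, there were 4.196 LDHA reads per LDHB read in the control, against 2.58 after sevoflurane. The balance of the subunit genes was thus tilted towards LDHB in the sevoflurane library, although both were lower there.

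The pairs that form 1 complex also shifted. MPC1 was 54.9% of the pyruvate carrier reads in the control and 45.8% after sevoflurane (odds ratio 0.693, 0.533 to 0.902). PDHA1 was 48.7% of the E1 reads in the control, against 55.1% after sevoflurane (odds ratio 1.29, 1.11 to 1.503). In both complexes 1 subunit gene was lower while the interval of its partner included equal levels.

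Among the glucose transporters, SLC2A1 took 56.9% of control reads, against 62.6% after sevoflurane (odds ratio 1.27, 1.10 to 1.47). ALDOA took 54.4% and 56.0% of the aldolase reads, a small shift with an odds ratio of 1.066 (1.010 to 1.126). No shift was detectable at this depth for hexokinase, where HK1 held 96.6% and 96.0% (odds ratio 0.864, 0.680 to 1.10), or for enolase, where ENO1 held 39.8% and 40.4% (odds ratio 1.02, 0.966 to 1.09).

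In the larger families, the 3 phosphofructokinase subunit genes kept similar shares, with PFKP at 56.4% and 58.6%, PFKL at 31.9% and 29.8%, and PFKM at 11.7% and 11.6%, and the odds ratio interval of each included 1. PFKFB3 went from 62.9% of the PFKFB reads in the control to 57.0% in the sevoflurane library, and PFKFB4 from 9.88% to 13.2%. SLC16A7 went from 46.0% to 53.4% of the monocarboxylate transporter reads, and SLC16A3 from 4.61% to 1.21%. Among the pyruvate dehydrogenase kinases, PDK2 went from 62.2% to 68.4%, PDK4 from 5.60% to 8.02%, PDK3 from 14.8% to 13.7%, and PDK1 from 17.4% to 9.84%. PDK1 thus lost the most share among the kinases, with an odds ratio against the other 3 of 0.519 (0.406 to 0.661).

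**Figure D5:**
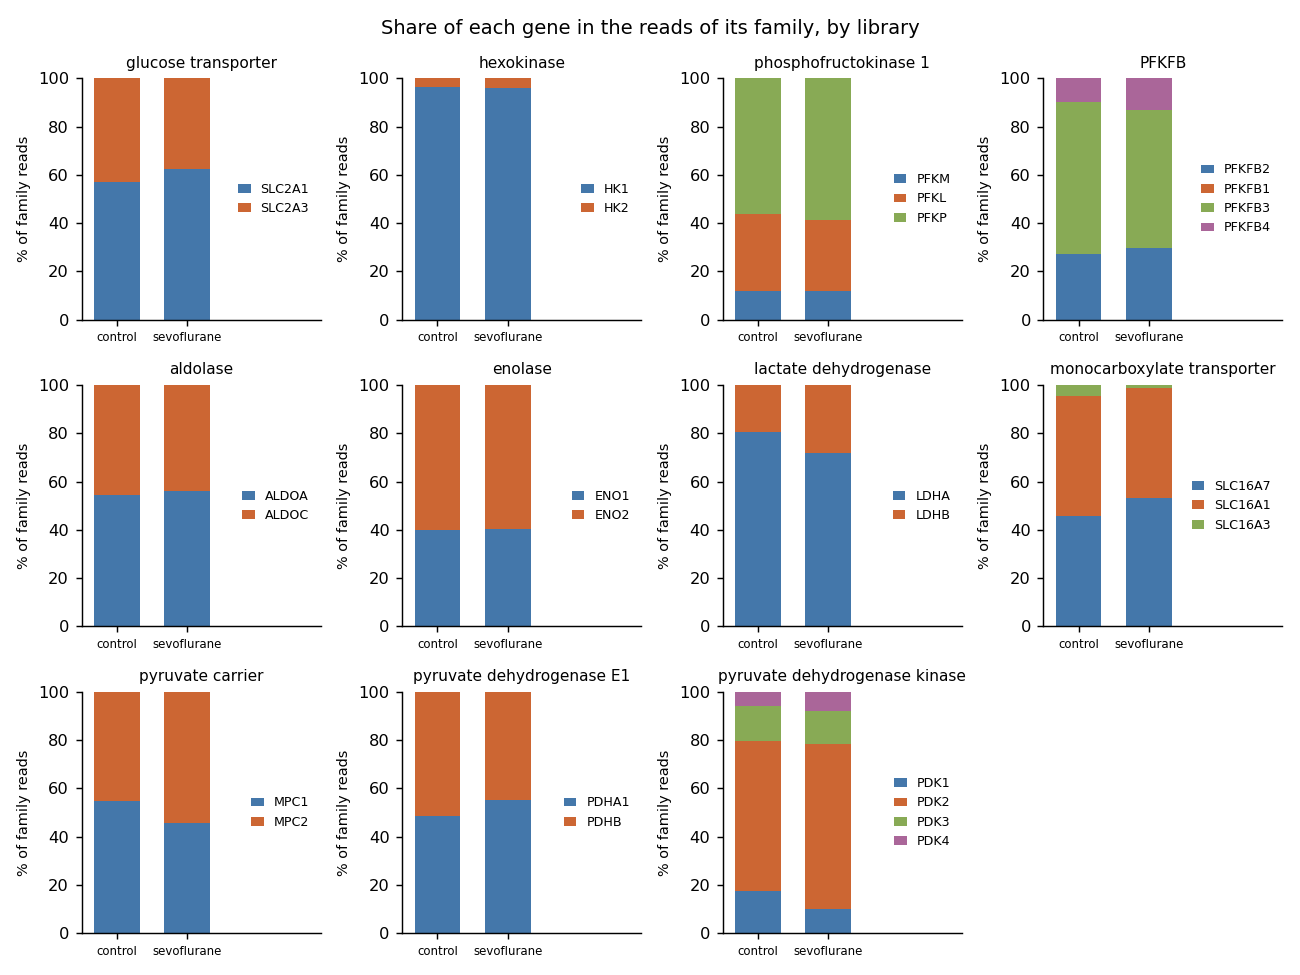
Stacked bars of the percent of reads that each gene takes in its family, for the control and the sevoflurane library, in 11 families. The LDHA segment shrinks from 80.8% to 72.1%, the MPC1 segment from 54.9% to 45.8% and the PDK1 segment from 17.4% to 9.84%, while the enolase, hexokinase and phosphofructokinase bars look alike in both libraries.

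The other genes of the pathway were described in the same way, and their counts are to be read against the 28.1% lower and 28.4% higher of all tested genes. Of 27 further glycolytic and glucose transport genes, 21 were tested, with a median log2 ratio of -0.17, of which 5 were higher and 7 lower beyond counting error. Of 27 further lactate and pyruvate genes in the table, 22 were tested (median -0.06), with 6 higher and 8 lower, and of 7 further pentose phosphate genes, 5 were tested (median -0.18), with 0 higher and 2 lower. In the first pair of lists the shares were near those of the whole table, and the last list is too short to read. At 2-fold, ME1, the cytosolic malic enzyme that makes pyruvate and NADPH, was lower with 610 control and 152 sevoflurane reads (log2 ratio -1.24, -1.51 to -0.99). HK3, a hexokinase of myeloid cells, was higher with 60 and 99 reads (log2 ratio 1.44, 1.00 to 1.97).

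The other 2-fold differences in these lists were in genes with few reads, named after their values were seen. SLC5A8, a lactate and pyruvate cotransporter, had 56 control and 8 sevoflurane reads. GCKR had 9 and 17 reads, the gluconeogenic genes FBP1 and FBP2 had 10 and 17 and 3 and 11 reads, and PCK1 had 0 and 15 reads. The PCK1 sevoflurane level was 8.46-fold the floor of 3 control reads, and the lower limit of its log2 ratio was 2.60.

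The phosphatases that reactivate pyruvate dehydrogenase, picked out for their role opposite the kinases after values were seen, were split. PDP1 had 3418 control and 1602 sevoflurane reads and was lower (log2 ratio -0.33, -0.42 to -0.25), and PDP2 had 368 and 384 reads and was higher (0.82, 0.61 to 1.03). BSG, the chaperone that brings SLC16A1 and SLC16A3 to the cell surface, had 4994 and 2883 reads, with an interval of -0.10 to 0.03.

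Markers of several cell types also differed between the libraries, not all in the same direction, and their part in the results above was not tested. All 12 markers of mature oligodendrocytes were lower, 11 of them at least 2-fold (among them MOG, MAG, MOBP, CNP, CLDN11, ERMN, MYRF, UGT8, OPALIN and ASPA), with a median log2 ratio of -1.29 and a summed level of 4350 CPM in the control against 2101 CPM after sevoflurane. Of 10 astrocyte markers, ALDOC among them, 7 were lower and 2 higher (median -0.42), with GFAP at -1.35 and AQP4 at -1.38, and the sum went from 6679 to 4679 CPM. The higher ones, named after their values were seen, were SOX9 (0.99) and SLC1A3 (0.27). Of 12 neuron markers, 9 were lower and 2 higher (median -0.27), the sum went from 9894 to 8193 CPM, and SLC17A6 was the one past 2-fold (1.73). The other higher neuron marker, also named after its value was seen, was RBFOX3 (0.83). All 6 oligodendrocyte precursor markers were lower (median -0.36), GPR17 at least 2-fold (-1.29), with sums of 583 and 410 CPM.

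Of 9 microglia markers, 4 were higher and 1 lower (median 0.28, C1QB 1.35), with sums of 237 and 263 CPM. Endothelial and mural markers were even, with 3 of 11 higher and 3 lower (ACTA2 1.24) and sums of 665 and 639 CPM. Of the red blood cell genes, 3 of 4 tested were higher, with sums of 24.9 and 80.8 CPM, HBB at 1.69, HBA1 at 0 reads in the control and SLC4A1 at 0 in the sevoflurane library. Of the choroid plexus and meninges genes, 3 of 7 tested were higher and 1 lower, with sums of 214 and 353 CPM, COL1A1 at 1.14 and FOLR1 at 0 reads in the control library. No marker of the neuron, astrocyte, oligodendrocyte, precursor, microglia or endothelial and mural lists was at 0 in either library.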

How the data were processed

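RNA sequencing counts of prefrontal cortex from 1 control and 1 sevoflurane macaque, mapped to groups by their labels, were used. The table the authors deposited gives raw counts of reads for each gene, and the submitters' processing notes name HISAT2 2.0.4. The counting tool, genome build and annotation are not given in the sources used here, so no coordinates or sequences are printed.

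Library sizes were scaled by TMM (edgeR 4.0.16, R 4.3.3) on genes reaching 1 CPM in at least 1 library, with a control factor of 0.991 and a sevoflurane factor of 1.01. Log2 ratios used a prior count of 2. Clopper-Pearson limits and conditional exact limits of odds ratios came from scipy 1.17.1 (Python 3.11.15, numpy 2.4.6, pandas 2.3.3), and plots from matplotlib 3.10.9. The 2-fold calls needed an interval clear of equal levels. The quasi-likelihood test could not be fitted to 1 library per group. The code was tested on simulated data.

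Members and lists were chosen with earlier results of these data known. All members are named, and of the pathway and marker genes those at least 2-fold apart with a mean of at least 5 CPM, with other names marked as picked later, except an item that is not reported here. The 20 CPM range, the pathway step sums and the read ratios between steps were added after seeing the data. The alternatives tried were scaling by library totals, upper quartile, DESeq2 1.42.0 size factors, GAPDH or ACTB, a prior of 0.5 reads, minimum levels of 5 CPM or 1 read, a 1.5-fold threshold and a stricter interval (99.9%).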

Additional observations from a re-analysis of the deposited data

How the results depend on the processing

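No paired analysis was possible because there was 1 library per group, and for the same reason no replicate could be left out. The GAPDH reference changed the most, giving 1 gene at least 2-fold higher (PDK4), 1 at least 2-fold lower (SLC16A3), 9 higher beyond counting error and an HK1 log2 ratio of 0.027. It shifts every ratio by the difference in GAPDH itself, and the share of higher genes among those of the group beyond counting error went from 18.5% to 32.1%. That share was not computed over all tested genes. The filter of 5 CPM left 1 gene 2-fold lower because SLC16A3 was no longer tested, and the 1.5-fold threshold gave 1 higher and 5 lower. Without GAPDH the group took 0.481% of the control and 0.391% of the sevoflurane reads. Over all alternatives run, the median of the group lay between -0.36 and -0.20. Of 215 values of single genes under other scalings or the lower prior count, 196 stayed within their counting interval. The 18 that left it came from the GAPDH reference. So did the 1 counted as reversed, HK1, whose main interval lay below 0 and whose ratio changed sign. TKT (0.14) and SLC2A1 (0.11), with main intervals that included equal levels, also changed sign under that reference, and TKT with library totals (0.012). With the stricter interval, 21 genes were lower and 4 higher, and the shares over all tested genes were not computed at that level. Isozyme shares per kilobase were not run, since no transcript or coding lengths were at hand. Depth limits SLC16A3, with 12 sevoflurane reads, and PDK4, with 82 control reads.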

Other observations

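The tricarboxylic acid cycle, which takes over the acetyl-CoA made by pyruvate dehydrogenase, was measured over a list of its enzymes. The list and its counts also include MDH1, which is cytosolic and not of the cycle itself. All 17 genes listed were tested, with a median log2 ratio of -0.17, and 9 were lower and 4 higher beyond counting error, beside 28.1% lower and 28.4% higher over all tested genes and 37.7% and 31.7% over those averaging 20 CPM or more. MDH1, the cytosolic malate dehydrogenase of the malate-aspartate shuttle, had 6405 control and 2641 sevoflurane reads (log2 ratio -0.52, -0.59 to -0.45). SDHD, a subunit of succinate dehydrogenase, had 202 and 66 reads (-0.84, -1.28 to -0.45). IDH3B, a subunit of isocitrate dehydrogenase, had 594 and 430 reads and was higher (0.29, 0.11 to 0.47). These genes were picked out after their values were seen.

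Glycogen is the glucose store of astrocytes. Of 11 genes of its metabolism, all tested, 2 were higher and 3 lower (median -0.03), shares near or below the 28.4% higher and 28.1% lower of all tested genes. PYGM, a glycogen phosphorylase, had 1080 control and 926 sevoflurane reads (log2 ratio 0.54, 0.41 to 0.66). PYGB, the brain form of the same enzyme, had 2390 and 1384 reads, with an interval of -0.13 to 0.07. UGP2, which makes the UDP-glucose used to build glycogen, had 1773 and 706 reads and was lower (-0.57, -0.70 to -0.44).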
